A study of Homo sapiens and Mus musculus with 47 samples.

Results

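The 10 genes described here are 5 CXC chemokines (IL8, CXCL1, CXCL2, CXCL3 and CXCL5), the CC chemokine CCL20, and 4 genes that feed back on the transcription factor NF-kB or on signalling towards it (NFKBIA, NFKBIZ, TNFAIP3 and BIRC3). They were chosen by gene name from the 57820 genes of each human count table, and the choice was made because IL8 was higher with the TAF3 reader in HCT116 cells. Values and calls of the HCT116 comparison are therefore given as a description only, and tests are read only in the other comparisons. Members and gene lists were chosen with earlier results of these data known, which limits those tests too.

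The data came from Chrom-seq, which biotinylates RNA near a histone mark in living cells, and from RNA-seq. In Chrom-seq a reader domain carries a peptide array that recruits APEX2, a peroxidase, and the biotin-labelled RNA is pulled down and sequenced. The control cells carried the array without a reader. HCT116 (human colorectal cancer), NIH3T3 (mouse embryonic fibroblast) and Neuro-2a (mouse neuroblastoma) cells were assayed with the TAF3 reader, a mouse domain that binds H3K4me3, or with the control, at 3 libraries per group. HEK293T cells, a line derived from human embryonic kidney, were profiled by RNA-seq. One pair of groups had the CBX7 reader, whose domain recognises H3K27me3, or a control given no antisense oligonucleotide (ASO) and whose construct the labels do not set apart, at 3 libraries each. Further HEK293T RNA-seq came from cells given the control ASO labelled NC (3 libraries) or an ASO against 1 of 3 long noncoding RNAs, SETD5-AS1 (3 libraries), LINC00641 (2 libraries) or LINC00662 (3 libraries). The labels give every group the same text, with constructs expressed for 48 h, 500 µM biotin-aniline for 30 min and 1 mM H2O2 for 1 min. The study's methods differ from this for RNA-seq, as they describe the ASO cells as transfected with ASOs and compare CBX7 with untreated HEK293T cells, so which HEK293T RNA-seq cells were labelled is not settled here. The study calls replicates of Chrom-seq and of the CBX7 RNA-seq independent, without saying that they were separate cultures, and for the ASO libraries neither was found, so p-values measure the spread between these libraries, which may be technical.

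NF-kB dimers are held in the cytoplasm by inhibitors such as the product of NFKBIA until a kinase complex, activated by receptors for tumour necrosis factor, interleukin-1 or microbial products, marks the inhibitor for degradation. Freed dimers bind kB sites in promoters of chemokine genes, and the chemokines draw neutrophils and other leukocytes to the tissue. The same dimers induce NFKBIA, TNFAIP3 and other brakes, so that the response limits itself, and epithelial tumour cells are a well known source of IL8.

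Depth was 14213105 to 17445889 counts in the HCT116 libraries, 8258859 to 15330874 in HEK293T RNA-seq and 10012172 to 17558305 in the mouse libraries. Marker sums differed between the human lines. The 9 colon epithelial markers, with 1 or 2 of them at 0 in a group, summed to 4254 to 4926 CPM (a library's counts divided by its total and scaled by TMM factors) in HCT116. In HEK293T they summed to 299 to 712 CPM. HEK293T groups expressed 5 of 5 markers of the embryonic kidney line, which summed to 447 to 782 CPM, against 10.1 to 14.7 in HCT116. In the NC and CBX7 libraries of HEK293T the colon sum was nevertheless above that of the kidney line. Each ASO lowered its target. SETD5-AS1 had 4.73, 4.24 and 3.97 CPM with its ASO and 52.9 to 53.5 with NC, LINC00641 had 0.916 and 1.93 against 38.5 to 43.1, and LINC00662 had 1.23 to 1.97 against 12.5 to 14.3. SETD5-AS1 also lay below NC with the ASOs against LINC00641 (29.0 to 30.6 CPM) and LINC00662 (28.1 to 29.3). LINC00641 had 24.8 to 29.7 CPM with the SETD5-AS1 ASO and 33.2 to 38.7 with the LINC00662 ASO. LINC00662 had 15.1 to 19.6 and 15.3 to 18.2 with the SETD5-AS1 and LINC00641 ASOs, above NC. In the control without an ASO, scaled separately, SETD5-AS1 had 29.1 to 32.1 CPM, LINC00641 25.6 to 32.0 and LINC00662 9.68 to 14.2.

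The promoters are shown first because they hold the kB-like sites for which this gene group is known. In RefSeq promoters of GRCh38.p14 (300 bases each, 250 before and 50 after the start), the kB-like motif GGNNTTTCC was searched on both strands. It was present in 10 of 10 members and in 2198 of 35116 promoters, or 6.26%. The 9 letters do not overlap another motif searched. A match is a description of letters and not a bound site. The following stretches run 5′ to 3′ on the gene's strand with matches to the motif, in either orientation, in capitals. They lie 100 to 41 bases before the RefSeq start, or 85 to 56 for CXCL2 and CXCL3, and were placed in hg19 by exact match.
IL8, chr4:74606186-74606245, + strand: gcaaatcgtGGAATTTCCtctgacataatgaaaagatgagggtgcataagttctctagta
CXCL1, chr4:74735010-74735069, + strand: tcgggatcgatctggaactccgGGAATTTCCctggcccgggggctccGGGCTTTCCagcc
CXCL2, chr4:74964968-74964997, - strand: gagctccgGGAATTTCCctggcccgggact
CXCL3, chr4:74904462-74904491, - strand: agctccgGGAATTTCCctggcccggccgct
TNFAIP3, chr6:138188296-138188355, + strand: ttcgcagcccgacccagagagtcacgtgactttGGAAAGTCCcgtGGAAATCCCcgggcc
NFKBIA, chr14:35873996-35874055, - strand: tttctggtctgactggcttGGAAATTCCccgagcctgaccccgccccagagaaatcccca

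CXCL1, CXCL2 and CXCL3 carried the same pair of matches, the first 78 or 77 bases before the start and the second 53 bases before it. Over the 100 bases before the start, 95 were identical between CXCL1 and CXCL2, 90 between CXCL1 and CXCL3 and 90 between CXCL2 and CXCL3. IL8 shared 45 to 48 of 100 with these 3 genes. TNFAIP3 had a pair of matches in the other orientation, starting 67 and 55 bases before its start. The remaining members had matches at 90 bases (CXCL5), 79 bases (CCL20) and 199 bases (BIRC3) before the start, and NFKBIZ had 1 match before each of its 2 RefSeq starts. The RefSeq starts of IL8, CXCL2, CXCL3 and TNFAIP3 lie downstream of the GENCODE v19 gene starts that the count tables use.

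**Figure D1:**
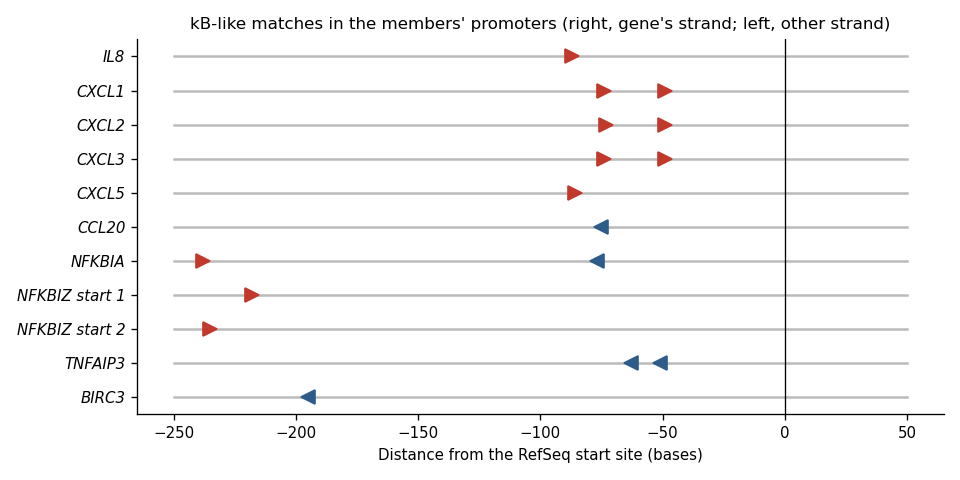
Matches to GGNNTTTCC in the promoters of the 10 genes, plotted by their distance in bases from the RefSeq start (grey lines, the 300 bases searched; red, the gene's strand; blue, the other strand). Each gene has at least 1 match, and CXCL1, CXCL2 and CXCL3 have the same pair within 78 bases of the start.

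Most of the messenger RNAs were rich in a second feature, the AUUUA pentamer of AU-rich elements, which mark many cytokine transcripts for rapid decay. In the 3′ untranslated region of the canonical transcript (GENCODE v44 on hg19), CXCL2 had 10 pentamers (13.9 per kb), CXCL3 7 (10.4 per kb), CXCL1 6 (7.74 per kb) and IL8 9 (7.17 per kb). The median over 16624 genes with at least 200 bases of such sequence was 1.79 per kb. CCL20 had 3 (6.30 per kb), NFKBIA 3 (5.96 per kb), CXCL5 11 (5.51 per kb) and BIRC3 12 (5.21 per kb). TNFAIP3 had 5 (2.51 per kb) and NFKBIZ 3 (1.81 per kb), the latter near the median. The longer UAUUUAU was present in 9 of 10 members, all but NFKBIZ, and in 36.0% of genes. Reads of CXCL1, CXCL2 and CXCL3 could be told apart over their length, since no 100-base window was shared between the transcripts of any 2 members, although up to 15.9% of 30-base windows were.

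In HCT116 Chrom-seq, which asks which RNAs are recovered near H3K4me3, IL8 (ENSG00000169429.6, chr4:74606223-74609433, + strand) was the member with the clearest difference, and it is the one that prompted the choice. IL8 encodes the main neutrophil-attracting chemokine of human epithelium. It had 19.7, 20.4 and 25.5 CPM with TAF3 and 5.96, 8.66 and 8.48 CPM in the control, means of 21.9 ± 3.2 and 7.70 ± 1.5 (SD, n = 3 each). All 3 TAF3 libraries lay above all 3 control libraries. The log2 fold change of IL8 was 1.497 (SE 0.13), ranging from 1.35 to 1.59 over 12 alternative settings, including leaving out each library.

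The other chemokines of the same chromosome 4 cluster did not share the size of this difference in these libraries. CXCL1, whose product binds the receptor CXCR2 on neutrophils, had 8.29, 10.98 and 9.16 CPM with TAF3 and 6.64, 8.78 and 9.59 in the control. Its groups overlapped, and so did those of CXCL2 and CXCL3, which encode close relatives of the CXCL1 product. CXCL2 had 4.66, 4.98 and 3.99 CPM against 2.83, 4.56 and 4.21. CXCL3 had 6.66, 7.34 and 6.43 CPM against 5.04, 8.03 and 6.96. The log2 fold changes were 0.18 for CXCL1, 0.23 for CXCL2 and 0.03 for CXCL3, with standard errors of 0.15, 0.20 and 0.16. CXCL5 (chr4:74861359-74864496, - strand), a further CXCR2 ligand, had no count in any of the 6 libraries, which allows a level of up to 0.0309 CPM over both groups, counting error only.

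CCL20 (chr2:228678558-228682272, + strand), the ligand of CCR6 on lymphocytes and dendritic cells, was near the detection limit. It had 0.242, 0.958 and 0.979 CPM with TAF3 and 0.184, 0.173 and 0.409 in the control. TAF3 replicate 1 lay within the control range while the other two lay above it. The log2 fold change of 1.46 had a standard error of 0.65 and was 1.89 without that library.

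Among the feedback genes, NFKBIA (chr14:35870717-35873955, - strand), which encodes the inhibitor IkB-alpha, was slightly lower with TAF3. It had 40.5, 42.8 and 45.7 CPM against 52.6, 54.7 and 50.1, so the groups did not overlap, and the log2 fold change was -0.29 (SE 0.07). The other feedback genes overlapped between the groups. NFKBIZ (chr3:101546835-101579866, + strand), an atypical nuclear IkB protein, had 30.7, 27.5 and 29.4 CPM against 27.2, 30.8 and 28.5. TNFAIP3 (chr6:138188351-138204449, + strand), a ubiquitin-editing enzyme that shuts off signalling to the kinase complex, had 26.6, 26.4 and 23.9 CPM against 22.2, 23.3 and 25.4. BIRC3 (chr11:102188215-102210134, + strand), a ubiquitin ligase of tumour necrosis factor receptor complexes, had 48.7, 47.1 and 50.8 CPM against 48.4, 61.1 and 52.5. Their log2 fold changes were 0.02, 0.12 and -0.15.

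The call rule required an adjusted p under 0.05 (edgeR, Benjamini-Hochberg) together with a change of 0.75 or more, up or down, on the log2 scale. In HCT116, 9 of the 10 members passed the filter on low counts, and 1, IL8, met the rule as higher. Over all genes tested, 3.34% were called higher and 3.28% lower. The rule that chose the members used this comparison, so nothing is read from the count. The same holds for groups that did not overlap, whose share of all genes was not taken. The median log2 fold change was 0.12 over the 9 members and -0.01 over all genes tested. HCT116 RNA without pull-down was not among the files used, so the level of an RNA and its nearness to the mark cannot be told apart here.

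**Figure D2:**
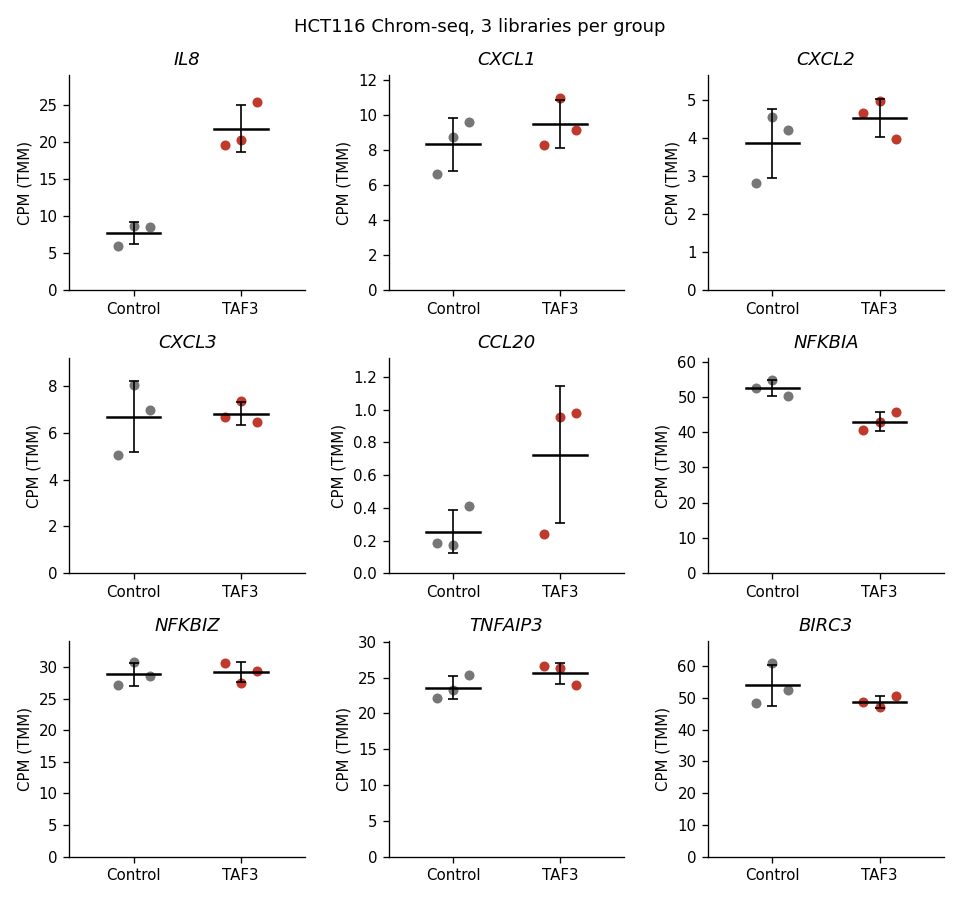
CPM of 9 members in each HCT116 Chrom-seq library (points), with the mean (bar) and SD (whiskers) of 3 libraries per group, on axes that start at 0. IL8 lies at 19.7 to 25.5 with TAF3 and at 5.96 to 8.66 in the control, and CXCL1, CXCL2 and CXCL3 overlap between the groups.

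The genes around IL8 were followed over 750 kb on each side, where 15 of 38 annotated genes were tested. RASSF6, the nearest tested gene upstream at 169.0 kb, had a log2 fold change of 0.01. CXCL1 lies 128.9 kb downstream, CXCL3 296.1 kb and CXCL2 356.5 kb, with the values above. MTHFD2L at 373.7 kb had -0.20. Past the chemokines lie the epidermal growth factor family genes EREG (624.6 kb, -0.22) and AREG (704.6 kb), and AREG was lower with TAF3, at 55.0, 53.8 and 59.9 CPM against 89.0, 114 and 110, a log2 fold change of -0.89. The antisense gene RP11-692D12.1, at -481.3 kb, was also lower, with a log2 fold change of -0.84 (SE 0.22, mean 58.7 counts). The one other value above 1 in the window belonged to the pseudogene HMGA1P2, at -641.7 kb, which had a mean of 4.2 counts. CXCL6, PF4, PF4V1 and PPBP, the other CXC genes of the cluster, did not pass the filter in HCT116.

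**Figure D3:**
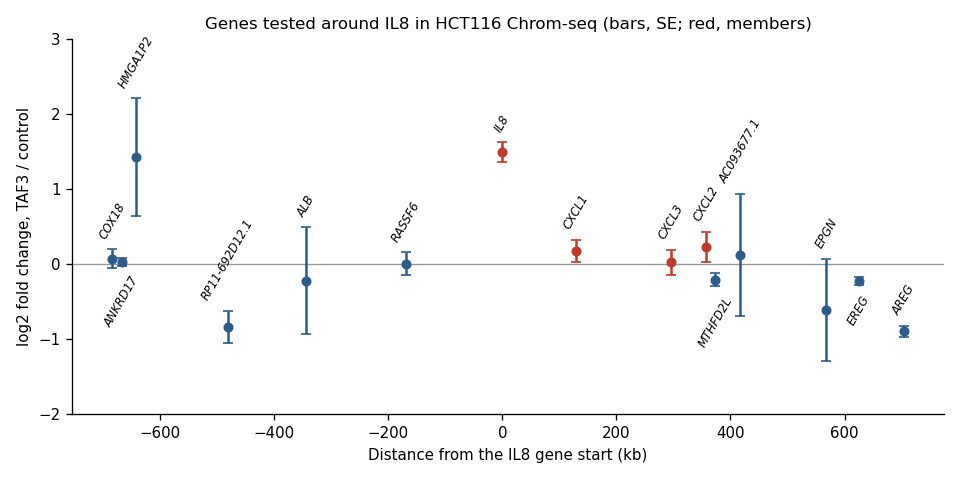
Log2 fold change (TAF3 over control, bars SE) of the 15 genes tested within 750 kb of the IL8 start in HCT116 Chrom-seq, by distance in kb (red, members; blue, other genes). IL8 stands at 1.497 while CXCL1, CXCL3 and CXCL2 stand at 0.18, 0.03 and 0.23.

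Of the 87 other genes of the pathway examined, few met the call rule in HCT116, and these too are given as a description. Among 11 tested inhibitors and feedback genes, BCL3, an IkB family coactivator, was lower with TAF3, at 9.44, 10.5 and 10.6 CPM against 31.7, 29.3 and 25.7 (log2 fold change -1.51). Among 21 tested NF-kB targets, TNFRSF9, a receptor of activated lymphocytes, was higher, at 3.45, 3.83 and 2.66 CPM against 0.738, 1.62 and 1.40 (1.39). Of the 5 NF-kB subunits, 18 adaptors and kinases and 8 upstream ligands and receptors tested, no gene was called. The summed level of 7 leukocyte markers was 10.2 to 11.7 CPM with TAF3 and 4.24 to 5.02 in the control, mostly from ITGAM (9.50, 10.3 and 10.4 against 3.81, 4.73 and 4.62 CPM), and its part in the IL8 difference was not tested.

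In HEK293T cells IL8 was at or near 0, too few counts to compare with HCT116. Over 17 libraries it summed to 18 counts, with at most 5 in a library and 9 libraries at 0. It was not detected in the SETD5-AS1 and LINC00641 ASO groups, which allows up to 0.0827 and 0.111 CPM. CCL20 had 0 counts and CXCL5 2 over the 17 libraries. The remaining 7 members were tested in each HEK293T comparison, and of these TNFAIP3, NFKBIA and NFKBIZ carried the most counts (2896, 4697 and 2061 in all).

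With the CBX7 reader, 0 of 7 tested members were called, while 7.66% of all genes tested were called in either direction. At an unadjusted p under 0.05 the count was also 0 by edgeR and by DESeq2. NFKBIA had 31.3, 35.8 and 18.6 CPM with CBX7 and 22.0, 26.6 and 16.7 in the control (0.39 on the log2 scale, SE 0.19, edgeR adjusted p 0.144). It was higher with CBX7 at each of the 3 replicate numbers. The numbers come from titles only and were taken to pair these libraries after their values were seen to move together. With the number as a block NFKBIA had 0.37 (SE 0.10, edgeR adjusted p 0.00736), under the size for a call. TNFAIP3 had 9.95, 12.7 and 14.3 CPM against 13.4, 13.0 and 13.8 (-0.11, adjusted p 0.604). NFKBIZ had 11.3, 9.75 and 10.4 CPM against 7.88, 8.33 and 10.8 (0.21, adjusted p 0.350). The groups of all 7 overlapped, and the values of CXCL1, CXCL2, CXCL3 and BIRC3 were 0.04, 0.38, 0.31 and 0.11 on the log2 scale, with standard errors of 0.36 to 0.80 from 4.5 to 17.3 mean counts. The gene CBX7 had 44.1, 39.5 and 41.7 CPM against 18.5, 14.8 and 16.2. These counts may include reads from the reader, a domain of mouse CBX7.

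Calls among other pathway genes with CBX7 were 1 of 18 adaptors and kinases, 1 of 5 subunits, 1 of 17 targets and 1 of 5 genes that act on AU-rich elements, where 7.66% of all genes were called. GADD45B, a stress-induced NF-kB target, rose by 0.98, ZFP36, which binds AU-rich elements and promotes decay, by 0.76, and the subunit gene RELB by 0.79 on the log2 scale, while the adaptor gene TRADD fell by 0.76. The call of GADD45B held under the 12 alternatives, while those of RELB, TRADD and ZFP36 were lost under 8, 7 and 5 of them. With the replicate number as a block RELB had 0.80 (adjusted p 0.0518) and ZFP36 0.73, and in DESeq2 RELB had an adjusted p of 0.106 and TRADD a value of -0.74. The leukocyte markers ITGAM and CD14 also rose, from 0 to 4 counts per library to 6 to 13.

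The ASO comparisons gave the largest differences. With each of the 3 targeting ASOs, TNFAIP3 and CXCL3 fell against NC, and CXCL2 fell too, less firmly with the LINC00662 ASO. TNFAIP3 overlaps the antisense gene RP11-356I2.4 on the opposite strand, and with strand use not given its counts are uncertain. It had 27.2, 27.2 and 25.0 CPM with NC. It had 9.21, 7.42 and 7.15 with the SETD5-AS1 ASO, 8.78 and 9.06 with the LINC00641 ASO, and 10.6, 12.5 and 10.2 with the LINC00662 ASO. Every targeted library lay below every NC library, and the falls were 3.33-fold, 2.93-fold and 2.27-fold. On the log2 scale they were -1.73 (SE 0.12, edgeR adjusted p 3.79e-09), -1.55 (SE 0.13, 5.82e-09) and -1.18 (SE 0.11, 1.82e-09). The 3 comparisons share the same NC libraries and are not independent of each other. In bulk samples, fewer cells that express a gene and less of its RNA per cell cannot be told apart.

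CXCL3 (ENSG00000163734.4, chr4:74902306-74904524, - strand) had 2.79, 4.34 and 3.95 CPM with NC. It had 0.664, 0.984 and 0.238 with the SETD5-AS1 ASO, 0.763 and 0.785 with the LINC00641 ASO, and 0.658, 0.888 and 1.17 with the LINC00662 ASO. The groups did not overlap. It fell by 2.51, 2.22 and 1.96 on the log2 scale, with edgeR adjusted p of 2.77e-05, 3.88e-05 and 8.25e-06.

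CXCL2 (ENSG00000081041.8, chr4:74962752-74965010, - strand) had 2.25, 1.74 and 1.89 CPM with NC. It had 0.166, 0.682 and 0.0794 with the SETD5-AS1 ASO, 0.382 and 0.143 with the LINC00641 ASO, and 1.51, 0.888 and 0.510 with the LINC00662 ASO. The LINC00662 libraries came closest to NC, and the groups did not overlap. CXCL2 fell by 2.59 (SE 0.53, edgeR adjusted p 4.48e-04) and 2.86 (SE 0.55, 1.96e-04) with the SETD5-AS1 and LINC00641 ASOs and by 0.93 (SE 0.38, 0.0414) with the LINC00662 ASO. This last call was lost in DESeq2 (adjusted p 0.0771), with library size alone (0.0511), in the single fit over all ASO groups (0.0685) and without LINC00662 replicate 2 or 3 or NC replicate 1 or 3, where the log2 fold change was -0.86, -0.63, -0.82 and -0.96.

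CXCL1 (ENSG00000163739.4, chr4:74735110-74736959, + strand) had 0.388, 1.04 and 0.898 CPM with NC, against 0.166, 0.227 and 0.159 with the SETD5-AS1 ASO, 0.458 and 0.214 with the LINC00641 ASO, and 0.526, 0.342 and 0.146 with the LINC00662 ASO. It fell with the SETD5-AS1 ASO only by the call rule (-1.99, edgeR adjusted p 0.0153, mean 5.7 counts), and the call was lost without NC replicate 2 (-1.72, adjusted p 0.0657). The LINC00641 and LINC00662 values were -1.16 (adjusted p 0.169) and -1.07 (adjusted p 0.137), with overlapping groups. IL8 had 1, 2 and 5 counts with NC, 0 in each SETD5-AS1 and LINC00641 library and 0, 5 and 2 with the LINC00662 ASO, too few to test.

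BIRC3 had 2.95, 2.87 and 2.16 CPM with NC and 1.49, 1.29 and 1.51 with the SETD5-AS1 ASO, a fall of 0.89 on the log2 scale (edgeR adjusted p 0.0171). The call was lost without SETD5-AS1 replicate 2 or NC replicate 1 or 2 (-0.82, -0.81 and -0.84). With the LINC00641 ASO BIRC3 had 2.06 and 1.498 CPM (-0.57, adjusted p 0.154), and with the LINC00662 ASO 1.58, 2.05 and 1.75 CPM (-0.50, adjusted p 0.137). With each ASO all targeted libraries lay below the lowest NC library for BIRC3.

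NFKBIZ, whose gene overlaps NXPE3 on the same strand so that its counts are uncertain, had 13.6, 13.8 and 11.5 CPM with NC. It had 9.63, 7.27 and 8.50 with the SETD5-AS1 ASO, 7.94 and 7.42 with the LINC00641 ASO, and 8.42, 9.16 and 8.75 with the LINC00662 ASO. The groups did not overlap, and the adjusted p were 0.00174, 5.49e-04 and 0.00298. The log2 fold changes of -0.61, -0.74 and -0.50 were smaller than 0.75, so NFKBIZ was not called, although the LINC00641 value passed under 6 of 12 alternatives.

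NFKBIA, in contrast with TNFAIP3, differed little. It had 20.001, 24.8 and 21.3 CPM with NC, 19.01, 15.9 and 18.03 with the SETD5-AS1 ASO, 19.009 and 15.9 with the LINC00641 ASO, and 29.6, 21.1 and 19.97 with the LINC00662 ASO. The log2 fold changes were -0.31 (edgeR adjusted p 0.0302), -0.32 (0.0480) and 0.17 (0.27), none of a size to be called, and the last was -0.03 without LINC00662 replicate 1.

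In counts against NC, 5 of 7 tested members were called lower with the SETD5-AS1 ASO. Of all genes tested, 11.5% were called lower and 12.9% higher. For the LINC00641 ASO the count was 3 of 7, against 11.5% lower and 11.0% higher among all genes. For the LINC00662 ASO it was also 3 of 7, against 13.3% lower and 11.6% higher. Every targeted library lay below every NC library for 7, 6 and 5 of the 7 members, a pattern seen in 29.1%, 32.3% and 29.8% of all genes. The members' median log2 fold change was -1.73, -1.16 and -0.93, and that of all genes tested 0.03, 0.00 and 0.00. Scaling by library size alone moved the SETD5-AS1 median of all genes to 0.17 and the share of higher genes among those called from 52.8% to 66.5%, and the members called lower were then 4, without BIRC3 (-0.75, adjusted p 0.0401, its size just under the limit).

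**Figure D4:**
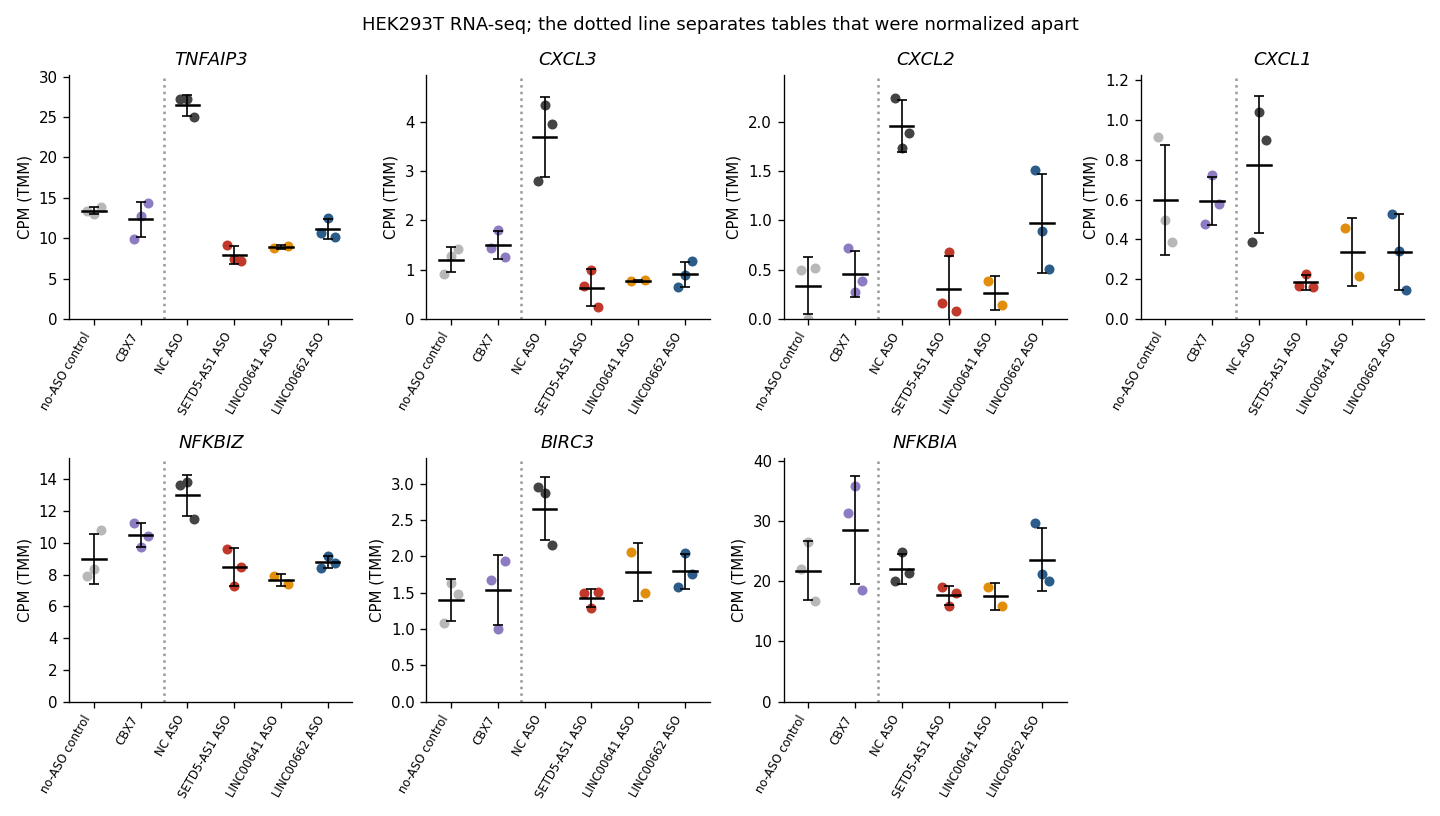
CPM of the 7 tested members in each HEK293T RNA-seq library (points), with the mean (bar) and SD (whiskers), for 3 libraries per group and 2 for the LINC00641 ASO. The dotted line parts 2 tables that were scaled separately. TNFAIP3 lies at 25.0 to 27.2 with NC and at 7.15 to 12.5 with the targeting ASOs, and NFKBIA overlaps between NC and the LINC00662 ASO.

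The groups that carried no targeting ASO were not alike. TNFAIP3 had 13.4, 13.0 and 13.8 CPM in the control of the CBX7 table, which received no ASO, and 26.5 ± 1.3 (SD, n = 3) with NC. CXCL3 had 0.913, 1.28 and 1.42 CPM in that control and 3.70 ± 0.81 with NC. These tables were scaled separately and the values are set side by side without a test. The other tested members also lay higher with NC, except NFKBIA and CXCL1. CXCL2 had 0 to 0.517 CPM in that control and 1.74 to 2.25 with NC, BIRC3 1.08 to 1.64 and 2.16 to 2.95, and NFKBIZ 7.88 to 10.8 and 11.5 to 13.8. NFKBIA had 21.8 ± 4.9 CPM in that control and 22.02 ± 2.5 with NC, and CXCL1 0.600 ± 0.28 and 0.776 ± 0.34, so these members overlapped. Whether the falls against NC reflect a higher level with NC or a lower one with the targeting ASOs was not tested.

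The 3 targeting ASOs were compared with each other in 1 fit over the 4 ASO groups, giving 21 differences for 7 members in 3 pairs. CXCL2 was the one member called. It was higher with the LINC00662 ASO than with the SETD5-AS1 ASO by 1.61 on the log2 scale (95% interval 0.38 to 2.84, edgeR adjusted p 0.0419), where 11.3% of all genes were called. The call was lost without SETD5-AS1 replicate 1 or 3, LINC00662 replicate 1 or 2, or NC replicate 1 or 3, at 1.32, 1.16, 1.13, 1.67, 1.61 and 1.61. TNFAIP3 was higher in the same pair by 0.49 (0.21 to 0.76, adjusted p 0.00655) and NFKBIA by 0.42 (0.14 to 0.70, adjusted p 0.0194), both under the size for a call.

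Between the LINC00662 and LINC00641 ASOs, 0 of 7 members were called, with 3 at an unadjusted p under 0.05, where 8.39% of all genes were called. NFKBIA was higher with the LINC00662 ASO by 0.44 (0.12 to 0.75, edgeR adjusted p 0.0410), and CXCL2 differed by 1.88 (0.44 to 3.33, adjusted p 0.0568). Between the SETD5-AS1 and LINC00641 ASOs, 0 of 7 were called and 0 had an unadjusted p under 0.05, where 2.06% of all genes were called. The interval of the difference was -0.49 to 0.14 for TNFAIP3, -1.36 to 0.79 for CXCL3 and -1.46 to 2.02 for CXCL2, so these data bound the TNFAIP3 difference closely and the CXCL2 difference hardly.

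**Figure D5:**
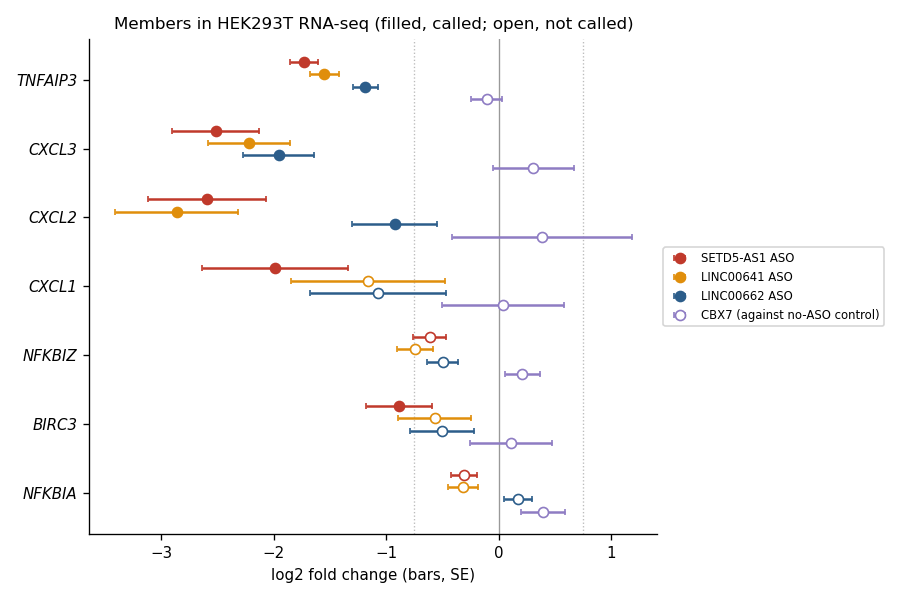
Log2 fold change (bars SE) of the 7 tested members with each targeting ASO against NC and with CBX7 against its control (filled, called; open, not called; dotted lines at 0.75 and -0.75). TNFAIP3, CXCL3 and CXCL2 are filled for the 3 ASOs, and no member is filled for CBX7.

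Other genes of the pathway give the context of these falls. Of 19 tested NF-kB targets outside the 10 members, 10, 9 and 8 fell with the SETD5-AS1, LINC00641 and LINC00662 ASOs, where 11.5%, 11.5% and 13.3% of all genes were called lower. Their medians were -0.88, -0.85 and -0.65. ICAM1, the leukocyte adhesion molecule, fell from 2.71, 2.52 and 2.70 CPM with NC with log2 fold changes of -2.03, -3.51 and -1.57. GADD45B fell too (-2.04, -2.01 and -1.58), as did IER3, an early response gene (-2.12, -1.64 and -1.59), and SDC4, a heparan sulphate proteoglycan (-1.79, -1.80 and -1.84). SDC4 was the best counted of these, with 76.3, 64.5 and 68.2 CPM with NC and 16.6 to 21.2 CPM in the 8 targeted libraries. In the control without an ASO, scaled separately, SDC4 had 27.7, 28.3 and 29.7 CPM and ICAM1 0.249, 0.641 and 0.840, below NC for both. Whether the falls of these genes reflect a higher level with NC was not tested.

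Among other inhibitors and feedback genes, 4 of 11, 3 of 12 and 1 of 12 fell, against the same shares of all genes, the last count lying below its share. BCL3 fell by 1.88, 1.86 and 1.85, from 14.4, 13.4 and 9.43 CPM to between 2.80 and 3.81. Its level in the separately scaled control without an ASO was 4.48, 2.92 and 3.43 CPM. CYLD, a deubiquitinase of the same pathway, fell with the SETD5-AS1 and LINC00641 ASOs by 0.81 and 0.78. TNIP1, a partner of the TNFAIP3 product, rose by 0.79 with the LINC00641 ASO, and FAM105B, a linear deubiquitinase, rose by 0.96 with the LINC00662 ASO.

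The genes between receptor and NF-kB gave calls in both directions. Of 18 adaptors and kinases, 4 rose and 4 fell with the SETD5-AS1 ASO, 2 and 4 with the LINC00641 ASO, and 3 and 4 with the LINC00662 ASO. Of all genes, 12.9%, 11.0% and 11.6% were called higher and 11.5%, 11.5% and 13.3% lower, so the 2 of 18 higher with the LINC00641 ASO lay near the background. TAB3, an adaptor of the kinase TAK1, rose by 1.75, 1.71 and 1.78, and TRAF3, a ubiquitin ligase, by 1.06, 1.15 and 1.13. The adaptor gene MYD88 fell, with values of -0.98, -1.504 and -1.15. BIRC2, the paralogue of BIRC3, fell by 0.90, 0.79 and 2.53, and MAP3K7, which encodes TAK1, by 1.90 with the LINC00662 ASO. LTBR, the lymphotoxin receptor, was the 1 of 6 upstream genes that fell, by 1.16, 2.29 and 1.48.

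Of the 5 NF-kB subunits, 1 was called with each ASO. Of all genes, 11.5%, 11.5% and 13.3% were called lower and 12.9%, 11.0% and 11.6% higher. A count of 1 of 5 is therefore not read as a result about the subunits. RELB fell by 0.80 (edgeR adjusted p 0.0346) and 0.83 (0.0173) with the SETD5-AS1 and LINC00641 ASOs, from 3.95, 3.39 and 3.77 CPM, and the first of these calls was lost without SETD5-AS1 replicate 3 (-0.47) or NC replicate 1 or 3 (-0.76 and -0.80) and with library size alone (adjusted p 0.0758). The second was lost without LINC00641 replicate 2 or NC replicate 1 (-0.72 and -0.79), in DESeq2 (adjusted p 0.0564) and with the replicate number as a block (0.0538). REL rose by 0.98 with the LINC00662 ASO, from 14.3, 14.7 and 13.7 to 29.5, 26.6 and 24.3 CPM. In the control without an ASO, scaled separately, RELB had 1.33, 1.35 and 1.81 CPM and REL 21.2, 18.7 and 24.4. RELA had values of -0.39, -0.43 and -0.27, NFKB1 of -0.15, 0.25 and 0.14, and NFKB2 of -0.10, -0.08 and 0.27, none called.

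Of 5 tested genes that act on AU-rich elements, 3 fell with each ASO, where 11.5%, 11.5% and 13.3% of all genes were called lower. The other 2 were not called lower with any ASO. ZFP36, itself an NF-kB target whose product promotes decay of such transcripts, had 19.8, 14.8 and 17.5 CPM with NC and 1.99 to 3.95 in the targeted libraries, falls of 2.71, 2.86 and 2.21. The separately scaled control without an ASO had 4.48, 4.91 and 5.23 CPM of ZFP36. The relative ZFP36L1 fell by 2.13, 1.59 and 2.20 and KHSRP by 1.11, 1.01 and 0.92, while ELAVL1, which stabilises such transcripts, rose by 0.93 with the LINC00662 ASO. ZFP36 and CXCL3 fell in the same libraries, and their relation was not tested.

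Markers of other cell types moved with these groups too. The summed level of 7 leukocyte markers was 1.89 to 3.52 CPM with NC and 0.530 to 0.742 with the SETD5-AS1 ASO, and CD14 had 1.47, 1.39 and 1.53 CPM with NC and 0.0794 to 0.395 in the targeted libraries, while 3 of the 7 markers were at 0 with NC. The 9 colon epithelial markers summed to 642 to 712 CPM with NC and 299 to 320 with the SETD5-AS1 ASO. The part of these differences in the falls of the members was not tested.

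In the mouse lines the same-named genes could be followed, except IL8, which has no mouse counterpart of that name. Mouse Taf3 counts include the reader and had 7875 to 9163 CPM with TAF3 against 123 to 134 in the NIH3T3 control, and 1582 to 1859 against 174 to 201 in Neuro-2a. In NIH3T3, 7 of 9 genes were tested and 1 was called, where 11.1% of all genes were called in either direction. Cxcl1 had 7.22, 7.99 and 5.57 CPM with TAF3 and 13.0, 9.96 and 13.2 in the control, so the groups did not overlap. It fell by 0.80 (SE 0.18, edgeR adjusted p 0.00185), and was past the p threshold but under the size for a call without TAF3 replicate 3 or control replicate 1 or 3 (-0.67, -0.75 and -0.73).

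The feedback genes of NIH3T3 differed in sign. Tnfaip3 had 16.1, 15.8 and 16.5 CPM with TAF3 and 12.1, 11.1 and 11.5 in the control (0.48, edgeR adjusted p 0.0117). Birc3 had 19.1, 13.9 and 16.2 CPM against 22.0, 21.1 and 21.9 (-0.40, adjusted p 0.0249). Neither group overlapped with its control, nor did that of Nfkbiz, and neither Tnfaip3 nor Birc3 reached the size for a call. The share of all genes without overlap was not taken in NIH3T3, so nothing is read from it here or for Cxcl1. Nfkbia (-0.11, adjusted p 0.472), Nfkbiz (-0.18, 0.106), Cxcl5 (-0.46, 0.220) and Cxcl2 (0.93, 0.639, mean 3.5 counts) did not pass.

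In Neuro-2a, 0 of 5 tested genes were called, where 1.03% of all genes were called. At an unadjusted p under 0.05 the count was 1 by edgeR and 0 by DESeq2. That gene was Birc3, with 3.06, 4.19 and 3.56 CPM with TAF3 and 5.75, 5.43 and 4.76 in the control (-0.56, adjusted p 0.300). Neuro-2a TAF3 replicate 1 stood apart from the other libraries, and without it the count of called members was also 0. Cxcl3, Cxcl5 and Ccl20 had no counts in this line, and Cxcl1 had 0.395 to 1.81 CPM.

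Across the 23 human libraries, with log2 CPM centred within each table, the genes whose values followed IL8 most closely among 14153 were IMPDH1P10 (r = 0.91), LINC01060 (0.87), MCMBP (0.86), ABCB1 (0.86) and RP11-100N20.1 (0.85). For NFKBIA they were VEZF1 (0.77), ZNF33B (0.73), WAC (0.73), DEPDC1 (0.73) and SEC62 (0.73). These are descriptions over libraries that share tables and treatments, and IL8 had more than 5 counts only in the 6 HCT116 libraries.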

How the data were processed

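The authors deposited raw read counts per gene, which carry no scaling. Per the study's methods and the submitters' notes, fastp 0.23.1 trimmed the reads, HISAT2 2.1.0 aligned them (human to hg19, mouse to mm10) and featureCounts 2.0.1 assigned them to GENCODE genes. Gene lengths in the tables span whole genes, so intronic reads may be counted, and strand use and shared reads are not given in the sources used here. Of 47 samples, 35 libraries in 5 tables were analysed, and 12 HEK293T Chrom-seq libraries, although planned, were not analysed here. No column was left unmatched to a sample.

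Members and gene lists were chosen with earlier results of these data known. Each comparison had its own fit in edgeR 4.0.16 (R 4.3.3; quasi-likelihood, TMM scaling), for genes with a summed count above 3 per library. Calls needed a Benjamini-Hochberg adjusted p under 0.05 over all genes tested and a log2 change of 0.75 or more, up or down. Standard errors are the size of the change over the root of F, and 95% intervals from the t distribution of the fit. CPM divide counts by the TMM-scaled library total, those of the ASO groups scaled together. The procedure was tested on simulated data. Named genes were the 10 members, the 5 NF-kB subunits, and up to 4 called genes per list with the largest change. AREG, EREG, RASSF6, MTHFD2L, HMGA1P2, CD14 and ITGAM were named after their values were seen, as were genes of the lists given to complete a set of 3 ASOs.

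Alternatives were DESeq2 1.42.0, its size factors, library size alone, no filter, filterByExpr, a block for replicate number, 1 fit over the ASO groups together, and leaving out each library. Among 34 replicate pairs none was a copy (lowest chi-square per gene 2.48). In the CBX7 table, libraries with the same number deviated together (r = 0.24, 0.40 and 0.16 across genes), so the numbers were taken to pair them. Floors for a count of 0 are 3 counts over the group's total.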

Additional observations from a re-analysis of the deposited data

Results flagged for a closer look

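Differences between the targeting ASOs, tested as contrasts in 1 fit with edgeR and adjusted over all genes, passed for 4 member values. CXCL2 was higher with the LINC00662 ASO than with the SETD5-AS1 ASO by 1.61 on the log2 scale (1.60541), with an adjusted p of 0.0419 that ranged from 0.00582 to 0.23 over 14 alternatives. TNFAIP3 was higher in the same pair by 0.49 (0.488374), with an adjusted p of 0.00655 that ranged from 0.00296 to 0.0472. NFKBIA was higher with the LINC00662 ASO than with the SETD5-AS1 ASO by 0.42 (0.421262, adjusted p 0.0194, range 0.00790 to 0.207), and than with the LINC00641 ASO by 0.44 (0.437163, adjusted p 0.0410, range 0.0175 to 0.312). LINC00662 replicate 1, with 29.6 CPM of NFKBIA and 1.51 of CXCL2, was the highest targeted library for both genes.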

How the results depend on the processing

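Of 888 member values under the alternatives, 855 kept their side of the call limits, 21 lost a call, 10 gained one and 2 changed sign. The sign changes were NFKBIA with the LINC00662 ASO (-0.028 without LINC00662 replicate 1, range -0.028 to 0.28 over the libraries left out) and CXCL2 for the SETD5-AS1 minus LINC00641 ASO difference (-1.03 without SETD5-AS1 replicate 2, range -1.03 to 1.09). Of 965 values of the other named genes, 925 kept their side, 38 lost a call, 1 gained one, and 1, NFKB2 with the SETD5-AS1 ASO, changed sign (0.040 with library size alone). A further 29 values that were not called changed sign by less than 1 standard error. The causes were not tested.

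Leaving out 1 library gave between 1 and 2 members called higher in HCT116 (2 without TAF3 replicate 1), between 3 and 5 called lower with the SETD5-AS1 ASO (3 without NC replicate 2), and between 0 and 1 called lower in NIH3T3. For the difference between the LINC00662 and SETD5-AS1 ASOs the count was between 0 and 1, and for that between the LINC00662 and LINC00641 ASOs also between 0 and 1 (1 without SETD5-AS1 replicate 2 or 3 or LINC00662 replicate 3).

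With the replicate number as a block, the members called lower were 5, 3 and 3 with the SETD5-AS1, LINC00641 and LINC00662 ASOs and 1 in NIH3T3, and 1 was called higher in HCT116. For members the block changed no call, although NFKBIA with CBX7 went from an adjusted p of 0.144 to 0.00736. The planned HEK293T Chrom-seq comparisons were not run. Outside the CBX7 table the numbers were not taken to pair libraries, with correlations between -0.17 and 0.19. The highest of these, for LINC00641 replicate 2, was above the lowest in the CBX7 table (0.16). In Neuro-2a, leaving out TAF3 replicate 1 raised the genes called higher from 172 to 565, and leaving out a control library lowered them to between 41 and 45. Library size alone moved the share of higher genes between the SETD5-AS1 and LINC00641 ASOs from 61.9% to 72.2%. Depth limited IL8, CXCL5 and CCL20 in HEK293T and CXCL1, at a mean of 5.7 to 7.2 counts, in the ASO comparisons.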
